A study of Mus musculus with 4 samples.

Results

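Kupffer-rich spots were the spots of 4 Visium sections of mouse liver that ranked highest in the share of UMIs (unique molecular identifiers, 1 per captured RNA molecule) from the Kupffer cell genes Clec4f, Vsig4, Timd4 and Cd5l. They numbered 1236 of 8246 spots, and they were set against 4122 Kupffer-poor spots. They were chosen by these measured UMI counts: spots with at least 500 UMIs were ranked by the share within 5 equal bins of total UMIs in each section, the top 15% were called Kupffer-rich and the bottom 50% Kupffer-poor, so the levels of the 4 genes in these classes are a description of the choice and not a result. Kupffer-rich and Kupffer-poor spots numbered 370 and 1232 in section MASH-1, 280 and 930 in MASH-2, 305 and 1020 in MAFL-1, and 281 and 940 in MAFL-2.

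The MASH sections came from livers of mice on a diet labelled WD for 16 weeks and the MAFL sections from livers after 8 weeks of the same diet, so the model and the weeks of diet change together and no section is from an untreated liver. Each spot of a Visium slide captures RNA from several neighbouring cells of fresh-frozen tissue, and no spot was given a cell type. The kept spots of a section held 32249289 to 63808230 UMIs. The labels do not say whether sections of 1 group are from different animals, so each p-value speaks of the spread between these sections alone, which can be technical, and strain, sex and age are not given in the sources used here. Per-section values below follow the order MASH-1, MASH-2, MAFL-1, MAFL-2, and CPM are counts scaled to a common library total (by TMM) of the summed spots of a class.

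Kupffer cells are the resident macrophages of the liver. They sit in the sinusoids, bind particles, complement-coated microbes and dying cells from portal blood, and take up aged red cells and return their iron. In mouse, Clec4f, a C-type lectin, marks these cells, Vsig4 is a complement receptor, Timd4 binds phosphatidylserine on dying cells and marks the long-lived resident population, and Cd5l is a scavenger-domain protein that macrophages secrete. In steatohepatitis some resident cells are lost and are replaced by monocyte-derived macrophages, among them the lipid-associated macrophages (LAM) known by Trem2, Gpnmb and Spp1.

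Promoters of the Kupffer genes are shown because the genes were measured together in the same spots and because 2 of the transcription factors described below belong to the family that binds the PU.1 core. Of 20 genes looked up, 16 had a promoter in the RefSeq table of build GRCm38.p6, with 18 promoters of 250 bases before to 50 after the start. Capitals mark the PU.1 core, searched as AGGAAGT and, for the other strand, ACTTCCT. It stood in 3 of the 18 promoters (those of Fcna and Spic and 1 of the 2 of Folr2, so 3 of the 16 genes), against 9.35% of 32851 promoters of the same length. The MAF half-site TGCTGAC or GTCAGCA stood in those of Fcna and Timd4, against 4.67% of all promoters, and it does not overlap the PU.1 core in Fcna. Below are 2 of the genes that chose the spots, without a core in this window (Clec4f, chr6:83656067-83656366, minus strand, and Cd5l, chr3:87357631-87357930, plus strand), and 2 resident Kupffer genes with 1 (Fcna, chr2:25627925-25628224, and Spic, chr10:88682974-88683273, both minus strand). A match is only a run of letters and does not show binding.
Clec4f: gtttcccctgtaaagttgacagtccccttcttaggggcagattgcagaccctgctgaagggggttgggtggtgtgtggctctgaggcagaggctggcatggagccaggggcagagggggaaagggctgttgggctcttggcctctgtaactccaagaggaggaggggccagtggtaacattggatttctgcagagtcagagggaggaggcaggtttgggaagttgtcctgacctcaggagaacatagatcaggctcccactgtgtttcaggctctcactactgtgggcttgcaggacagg
Cd5l: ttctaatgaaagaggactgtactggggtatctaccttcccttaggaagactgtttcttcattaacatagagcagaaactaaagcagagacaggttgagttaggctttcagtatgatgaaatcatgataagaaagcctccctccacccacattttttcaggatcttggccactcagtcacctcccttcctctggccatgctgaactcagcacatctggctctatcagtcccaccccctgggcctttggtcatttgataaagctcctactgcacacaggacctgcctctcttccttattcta
Fcna: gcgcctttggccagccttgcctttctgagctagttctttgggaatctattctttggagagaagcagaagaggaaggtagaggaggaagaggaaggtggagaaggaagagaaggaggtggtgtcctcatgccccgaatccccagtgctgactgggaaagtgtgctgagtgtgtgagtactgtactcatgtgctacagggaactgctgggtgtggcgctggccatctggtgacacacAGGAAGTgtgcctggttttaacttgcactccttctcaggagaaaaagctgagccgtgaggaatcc
Spic: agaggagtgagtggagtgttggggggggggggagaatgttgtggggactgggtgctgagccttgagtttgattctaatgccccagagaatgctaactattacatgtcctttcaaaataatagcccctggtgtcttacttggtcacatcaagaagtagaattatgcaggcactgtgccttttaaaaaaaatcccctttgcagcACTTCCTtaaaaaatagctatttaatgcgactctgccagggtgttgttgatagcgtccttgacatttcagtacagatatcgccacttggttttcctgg

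The spots chosen held a median of 20, 19, 7 and 11 UMIs of the 4 genes, and Kupffer-poor spots held 5, 4, 2 and 4. Per 10000 UMIs, this came to 8.69, 9.70, 4.73 and 5.72 in Kupffer-rich spots and 2.41, 2.03, 1.18 and 1.90 in Kupffer-poor spots. The label of the class is thus one of degree, since Kupffer-poor spots were not empty of these genes: only 48 of 1232, 40 of 930, 152 of 1020 and 31 of 940 had no UMI of any of them. At the threshold, the lowest share inside ran over the 5 bins from 5.41 to 7.16 per 10000 UMIs in MASH-1, 6.32 to 7.42 in MASH-2, 3.47 to 4.14 in MAFL-1 and 4.44 to 4.87 in MAFL-2, and the highest share just outside from 5.40 to 7.13, 6.32 to 7.42, 3.46 to 4.09 and 4.40 to 4.87.

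Spots differed more in these genes in the MASH sections. Beyond counting error, the share of the 4 genes varied between spots with a coefficient of variation of 53.7% and 64.9% in the MASH sections, against 33.4% and 28.8% in the MAFL sections. Taken singly, Timd4 showed no spread beyond counting in either MAFL section, nor did Vsig4 in MAFL-1. With spots thinned to 5000 UMIs, Spearman correlations between pairs of the 4 genes ran from -0.0073 to 0.050 in MAFL and 0.030 to 0.144 in MASH. How far counting error chose the Kupffer-rich spots of each group was not tested. Over whole sections, Cd5l stood at 209.7 and 210.3 CPM of the section's own total in MASH against 97.3 and 145 in MAFL, Vsig4 at 57.9 and 51.7 against 28.2 and 36.2, and Clec4f at 142 and 146 against 92.3 and 118. Timd4, at 11.3 and 8.30 against 6.42 and 8.55, overlapped between the groups. None of the 4 passed an adjusted p of 0.05 in edgeR's quasi-likelihood test (0.151 for Vsig4, 0.196 for Cd5l, 0.357 for Clec4f and 0.550 for Timd4). In bulk sums of spots, fewer cells of a type and less RNA per cell cannot be told apart.

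Each marker was also measured in spots that it had not chosen, by ranking spots on the other 3 genes. Every held-out marker was higher in Kupffer-rich spots in 4 of 4 sections. Held-out Timd4 had 20.4, 15.6, 10.9 and 12.7 CPM in Kupffer-rich spots, against 7.47, 4.03, 5.76 and 7.93 CPM in Kupffer-poor spots, a log2 fold change of 1.31 (SE 0.184, edgeR adjusted p = 0.00739). Held-out Vsig4 had 100.5, 93.8, 40.2 and 50.7 CPM in Kupffer-rich spots, against 42.2, 31.3, 26.4 and 34.3 CPM in Kupffer-poor spots. Held-out Clec4f had 227, 244, 117 and 155 CPM against 107, 89.6, 85.8 and 114 CPM, and held-out Cd5l 351, 375, 134 and 190 CPM against 153, 134, 90.7 and 136 CPM.

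Timd4 alone passed across the 4 sections. The log2 fold changes of Vsig4, Cd5l and Clec4f were 1.10 (SE 0.231), 0.99 (SE 0.234) and 0.90 (SE 0.237), with edgeR adjusted p of 0.219, 0.300 and 0.294. Their gap between the classes was wider in MASH: it differed between the groups by 0.81 for Clec4f (adjusted p = 0.0256), 0.81 for Vsig4 (adjusted p = 0.000305) and 0.82 for Cd5l (adjusted p = 7.64e-06) in edgeR's interaction test, and by 0.85 for Timd4 (adjusted p = 0.0809). MASH spots also held more marker UMIs to rank on, and with these thinned to 1 mean per spot in every section the differences were 0.63, 0.70 and 0.58 (adjusted p = 6.4e-08, 0.0432 and 0.801) for the first 3 genes and 0.65 (adjusted p = 0.24) for Timd4, so that of Cd5l no longer passed. Without MASH-1 held-out Timd4 did not pass (log2 fold change 1.22, adjusted p = 0.0963).

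**Figure D1:**
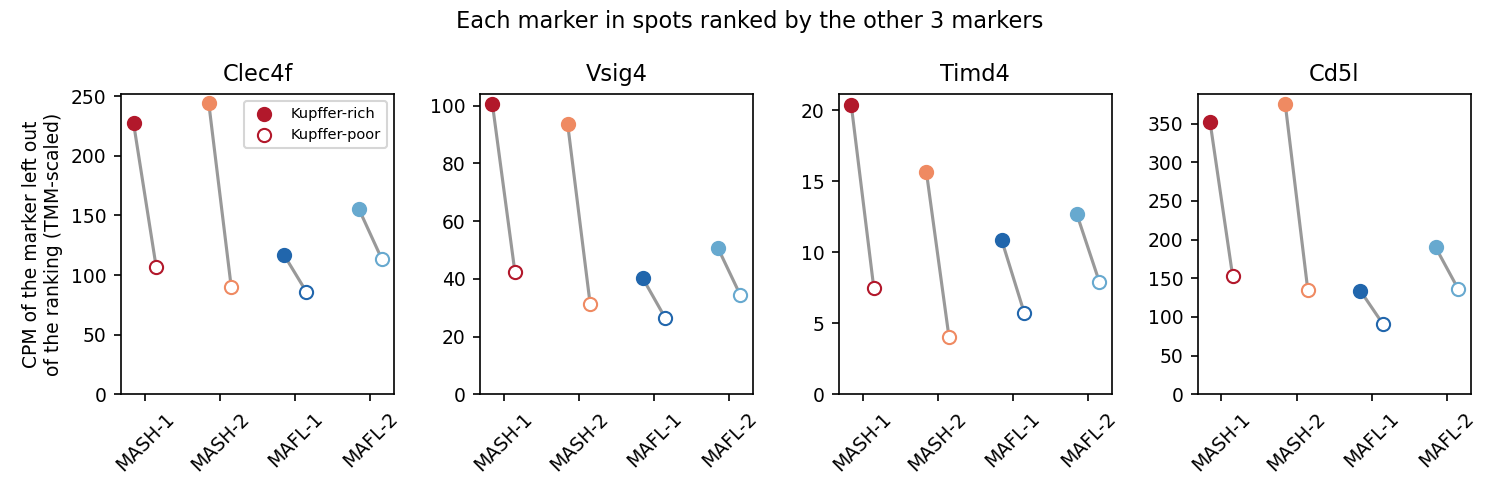
Each panel shows 1 marker in spots ranked by the other 3, as CPM (vertical axis, from 0) in Kupffer-rich spots (filled circles) and Kupffer-poor spots (open circles) of each section (horizontal axis), joined by a line. Filled circles lie above open ones in all 4 sections for all 4 genes, with log2 gaps for Clec4f of 1.09 and 1.45 in MASH and 0.45 and 0.45 in MAFL.

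Of 12502 genes tested without the 4 markers, 324 were higher (2.59%) and 50 lower (0.4%) than in Kupffer-poor spots of the same sections, by edgeR's quasi-likelihood test with the section as a block. The 12 highest named genes were mostly genes of macrophages: the elastase Mmp12, the surface receptors Cd300ld and Cd300c2, galectin-3 (Lgals3), the lysosomal transporter Slc15a3, the haem oxygenase Hmox1, the phospholipase Pla2g7, the integrin chains Itgb2 and Itgal, the inhibitory receptor Pirb, the IgG receptor Fcgr3 and Spi1, which encodes PU.1. Log2 fold changes ran from 0.91 (Spi1) to 1.59 (Mmp12), and each of the 12 was higher in 4 of 4 sections. Of 14 monocyte and macrophage genes tested, 3 were higher and none lower (Ms4a6c, Cd14 and Laptm5, median 0.65). Cd300ld, Cd300c2, Pirb and Fcgr3 have close relatives in the genome, so counting could split reads between copies. Without MASH-1, 48 genes were higher and 8 lower, and 14 of the 24 genes named here as highest or lowest no longer passed. Without MASH-2, 165 were higher and 80 lower, and in the MAFL sections alone 21 of the 24 did not pass.

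Of the 16 resident Kupffer genes outside the rule, 4 were higher and none lower, and all 16 had a positive log2 fold change with a median of 0.96, against a median of -0.018 over all genes tested. Slc40a1, the iron exporter ferroportin, had 111, 113, 65.8 and 99.9 CPM in Kupffer-rich spots, against 70.004, 70.6, 53.0 and 81.8 CPM in Kupffer-poor spots (log2 fold change 0.51, SE 0.067, edgeR adjusted p = 0.00136). Spic, a PU.1-related factor of iron-recycling macrophages, had 5.44, 6.30, 1.92 and 4.05 CPM against 2.33, 1.93, 1.45 and 2.96 CPM (log2 fold change 1.10, SE 0.198, adjusted p = 0.000966). Kcna2, a potassium channel chain, had 4.82, 8.08, 3.19 and 4.05 CPM against 2.003, 2.40, 1.83 and 3.47 CPM (log2 fold change 1.13, adjusted p = 0.0016). These 3 genes were higher in all 4 sections. The membrane protein gene Tmem26, with 3.59, 4.93, 0.426 and 1.47 CPM against 1.03, 1.84, 0.885 and 1.23 CPM, passed as well (log2 fold change 1.19, adjusted p = 0.0152) but was lower in Kupffer-rich spots of MAFL-1. In Kupffer-rich spots of MAFL-1 and MAFL-2, Spic rests on 9 and 22 UMIs, Kcna2 on 15 and 22 and Tmem26 on 2 and 8. Over 19 alternative settings other than left-out sections, Slc40a1, Spic and Kcna2 each lost the call in 3 and Tmem26 in at least 3.

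Other resident genes had positive values without passing the test. The scavenger receptor Marco had 102, 39.3, 32.4 and 30.6 CPM in Kupffer-rich spots, against 42.1, 11.2, 18.8 and 18.6 CPM in Kupffer-poor spots (log2 fold change 1.199, SE 0.212, edgeR adjusted p = 0.145). Adgre1, the F4/80 antigen, had 47.1, 51.2, 16.4 and 22.8 CPM against 19.9, 17.6, 9.42 and 16.0 CPM (log2 fold change 1.15, adjusted p = 0.0964). Both genes were higher in all 4 sections, and their 2 MASH gaps exceeded their 2 MAFL gaps. The folate receptor Folr2, the haemoglobin receptor Cd163, the lectins Clec1b and Fcna and the IL-18 inhibitor Il18bp had log2 fold changes of 0.79 to 1.05 with adjusted p of 0.124 to 0.336, each higher in 4 of 4 sections, and Siglec1, a sialic acid receptor, 1.02 (adjusted p = 0.15) in 3 of 4. Values nearer 0 were those of the complement component C6 (0.01), the regulator Id3 (0.02) and Nr1h3, which encodes the oxysterol receptor LXR alpha (0.12), with adjusted p of 0.134 to 0.964.

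**Figure D2:**
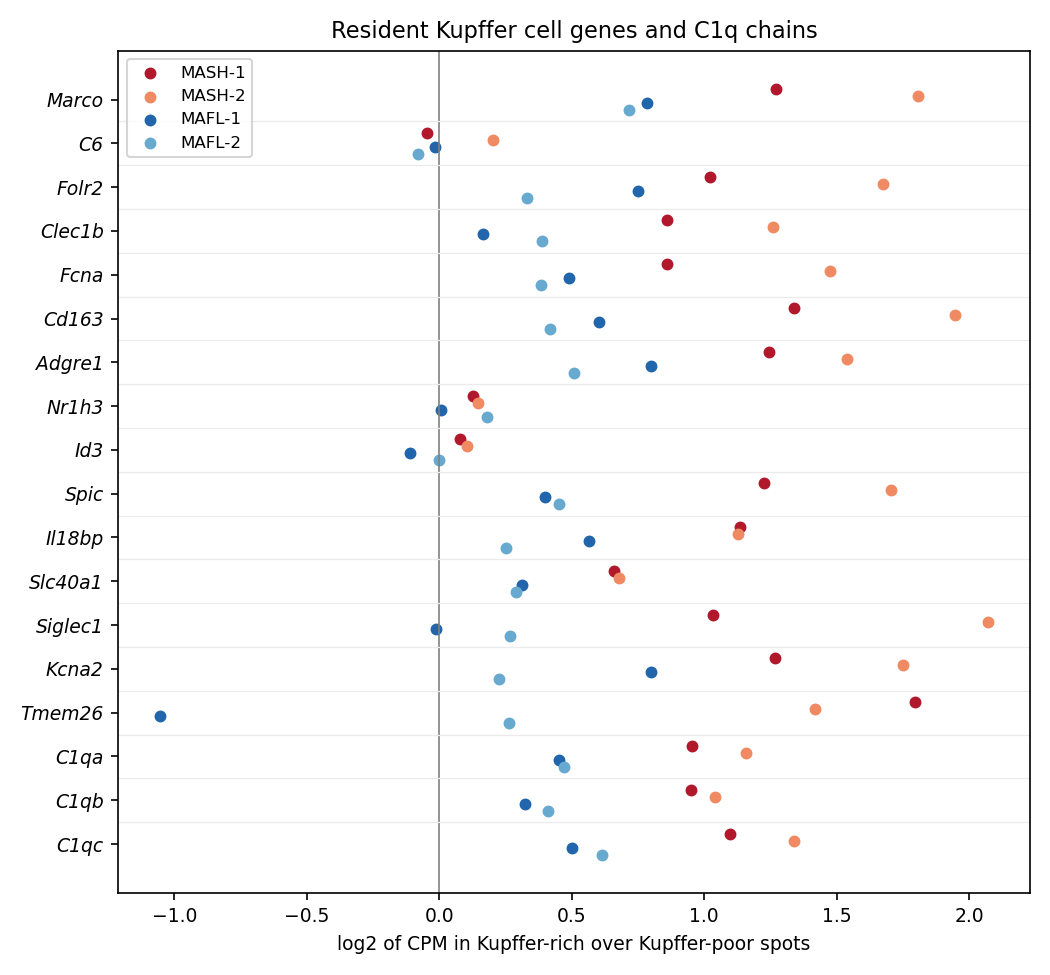
Each row is a resident Kupffer gene described in the text or a C1q chain, and each dot is 1 section, placed at the log2 ratio of CPM in Kupffer-rich over Kupffer-poor spots (horizontal axis). The MASH dots lie to the right of both MAFL dots for Marco, Adgre1, Cd163 and C1qa, whereas the fitted values of C6 and Id3 are 0.01 and 0.02.

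Of 12 iron and haem recycling genes, 4 (Hmox1, Slc11a1, Spic and Slc40a1) were higher and none lower, with a median log2 fold change of 0.16. Hmox1 had 45.3, 34.1, 22.4 and 35.9 CPM in Kupffer-rich spots, against 20.6, 13.5, 13.2 and 20.9 CPM in Kupffer-poor spots (log2 fold change 1.04, SE 0.081, edgeR adjusted p = 5.64e-08). Slc11a1, the phagosomal metal transporter, had 13.1, 21.0, 5.54 and 4.79 CPM against 5.43, 9.91, 2.91 and 3.63 CPM (log2 fold change 1.05, adjusted p = 2.12e-06). Hmox1 and Slc11a1 were higher in all 4 sections, while the ferritin chains Fth1 and Ftl1 had log2 fold changes of -0.03 and -0.04 and did not pass. Haemoglobin transcripts moved the other way, at 0.282%, 0.122%, 0.152% and 0.0976% of UMIs in Kupffer-rich spots, against 0.479%, 0.143%, 0.303% and 0.217% in Kupffer-poor spots, and their part in these results was not tested.

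Among scavenger, efferocytosis and Fc receptor genes 5 of 12 were higher and 1 lower (median log2 fold change 0.79), and 4 of the 5 were Fc receptor genes (Fcgr1, Fcgr3, Fcgr4 and Fcer1g). Fcgr1, the high-affinity IgG receptor, had 11.5, 18.9, 7.03 and 6.45 CPM in Kupffer-rich spots, against 5.10, 7.42, 2.34 and 3.58 CPM in Kupffer-poor spots (log2 fold change 1.24, SE 0.12, edgeR adjusted p = 1.23e-07). Fcgr3 followed with 31.997, 29.6, 8.94 and 9.58 CPM against 13.02, 16.1, 6.26 and 5.65 CPM (log2 fold change 0.997). Both were higher in all 4 sections. The scavenger receptor Msr1 rose as well (0.73, adjusted p = 0.000318). The dying-cell receptors Axl (0.64, adjusted p = 0.225) and Mertk (0.46, adjusted p = 0.159) did not pass, and Gas6, the ligand that bridges dying cells to TAM receptors, fell in all 4 sections (-0.39, adjusted p = 0.000306).

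Of 8 complement genes 2 were higher, none lower (median log2 fold change 0.89): the anaphylatoxin receptor C3ar1 (1.10, SE 0.12, edgeR adjusted p = 1.05e-06) and the integrin chain Itgb2 (1.02, adjusted p = 0.00283). C1qa, a chain of the first complement component, which macrophages make, had 267, 349, 119 and 146 CPM in Kupffer-rich spots, against 138, 156, 87.1 and 105 CPM in Kupffer-poor spots (log2 fold change 0.81, adjusted p = 0.201), and C1qc 191, 269, 66.6 and 85.7 CPM against 89.3, 106, 47.0 and 56.0 CPM (0.98, adjusted p = 0.169). C1qa and C1qc were higher in 4 of 4 sections. Among 12 myeloid transcription factor genes, Spi1, Spic, Irf8 and Maf rose. Spi1 had 17.5, 23.8, 6.39 and 8.48 CPM in Kupffer-rich spots, against 8.98, 11.3, 4.74 and 5.14 CPM in Kupffer-poor spots, and the smaller gaps of Irf8 and Maf came to 0.49 and 0.27 on the log2 scale (adjusted p = 0.00563 and 0.00726).

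Of 12 LAM genes tested, 7 were higher and 1, Spp1, lower (median log2 fold change 0.67). Lpl (0.57), Fabp5 (0.24), Cd9 (0.10) and Cd63 (0.03) did not pass. The 13 genes of the list summed to 409, 831, 234 and 167 CPM of the class's own total in Kupffer-rich spots, against 269, 666, 262 and 185 CPM in Kupffer-poor spots, so the sum was higher in both MASH sections and lower in both MAFL sections. Mmp12 had 36.5, 87.9, 1.06 and 1.47 CPM in Kupffer-rich spots, against 9.66, 33.1, 0.759 and 0.503 CPM in Kupffer-poor spots, and its log2 fold change of 1.59 (SE 0.097, edgeR adjusted p = 1.12e-09) rests on the MASH sections, since only 5 and 8 UMIs were counted in Kupffer-rich spots of the MAFL sections. Trem2, the lipid-sensing receptor, had 19.4, 27.8, 1.49 and 3.32 CPM against 7.95, 17.2, 1.83 and 2.12 CPM (0.89, adjusted p = 0.000306), higher in 3 of 4 sections. Lgals3 had 52.0, 111, 14.5 and 16.2 CPM against 21.3, 49.8, 10.7 and 10.1 CPM (1.07, adjusted p = 0.00136). Spp1, osteopontin, which bile duct cells also express, went the other way in all 4 sections, with 66.5, 179, 62.4 and 40.5 CPM in Kupffer-rich spots against 99.1, 301, 91.9 and 67.2 CPM in Kupffer-poor spots (-0.66, SE 0.045, adjusted p = 2.07e-10). Without the LAM-gene-rich spots described below, 232 genes were higher and 24 lower in Kupffer-rich spots.

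The classes also differed in genes of other cells. Of 5 bile duct genes 2 were lower: the adhesion molecule Epcam (log2 fold change -1.02, edgeR adjusted p = 0.000499) and the claudin Cldn7 (-0.95, adjusted p = 0.00417). The 6 bile duct genes summed to 8.97 to 23.8 CPM of the class's own total in Kupffer-rich spots over the sections, against 11.7 to 37.3 in Kupffer-poor spots, and only in MAFL-1 was 1 of the 6 without a UMI in Kupffer-rich spots. Among 18 sinusoidal endothelial genes Cdh5 (0.42) and the mannose receptor Mrc1 (0.56), which macrophages share, were higher, and among 16 stellate and fibroblast genes Col3a1 (0.38) and Col1a2 (0.30), both in 3 of 4 sections, with edgeR adjusted p of 0.00374 to 0.0192 for the 4. None of 14 T and NK cell genes, 5 B and plasma cell genes or 7 dendritic cell genes passed in edgeR, where the lowest adjusted p was 0.339 (Cxcr6, the 1 gene of these lists with an unadjusted p under 0.05). Of 4 neutrophil genes tested the growth factor receptor Csf3r rose (0.90, adjusted p = 0.0262), and the 8 genes of that list summed to 8.03, 43.6, 10.9 and 14.4 CPM of the class's own total in Kupffer-rich spots against 9.68, 14.7, 7.41 and 13.6 CPM in Kupffer-poor spots. MASH-2 stood apart in that sum. Of 8 large vessel endothelial genes Vwf, the clotting factor carrier, fell (-0.48, adjusted p = 0.0098). The part of other cell types in the macrophage result was not tested.

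Among other lists, 6 of 19 chemokine and cytokine genes were higher and none lower (median 0.44). Il1b, an inflammasome-processed cytokine, had 6.97, 7.12, 3.41 and 2.76 CPM in Kupffer-rich spots, against 3.07, 3.82, 1.71 and 1.40 CPM in Kupffer-poor spots (log2 fold change 1.03, SE 0.16, edgeR adjusted p = 0.000142) and was higher in each section. Cxcl16 (0.44), Ccl3 (1.43, with no UMI in Kupffer-rich spots of MAFL-1) and Ccl9 (0.25) rose too. The cholesterol acyltransferase Soat1 (0.83) and the sterol transporter Abcg1 (0.65) were the 2 of 11 cholesterol efflux and LXR target genes to rise. Of 17 lysosome genes only progranulin, Grn, passed (0.19, adjusted p = 0.00877), and of 18 genes of the signals that maintain Kupffer cells only the BMP receptor Acvrl1 (0.58, adjusted p = 0.00383).

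The study's title names the cytokine Mif and its receptor chain Cd74. Mif did not pass the test between the classes, with 262, 234, 231 and 238 CPM in Kupffer-rich spots, against 271, 260, 228 and 247 CPM in Kupffer-poor spots (log2 fold change -0.06, SE 0.036, edgeR adjusted p = 0.494). Cd44, which signals with Cd74, had 21.0, 28.5, 11.1 and 15.3 CPM against 10.6, 15.4, 9.55 and 8.89 CPM (0.81, SE 0.096, adjusted p = 5.12e-06), higher in every section. Cd74 had 387, 558, 84.1 and 105 CPM against 196, 338, 79.9 and 81.3 CPM (0.62 on the log2 scale, adjusted p = 0.335). Its ranges in the 2 groups did not overlap in either class. Of 8 MHC class II genes, the peptide-loading chains H2-DMa (0.63) and H2-DMb1 (0.62) passed, with a median of 0.62 over the list. The Mif paralogue Ddt (-0.11, adjusted p = 0.0653) and the receptor Cxcr4 (0.45, adjusted p = 0.551) did not.

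The lowest named genes were Spp1, the actin-severing Gsn (-0.60), Gas6, the tropomyosin Tpm2 (-0.37), the glutathione transferase Gstm6 (-0.35), Adamtsl2 (-0.34), the dicarboxylate transporter Slc13a3 (-0.34), the phosphatase Lhpp (-0.33), Tm4sf1 (-0.30), Tsc22d1 (-0.28), Alas2, the erythroid enzyme of haem synthesis (-0.22), and the nuclear receptor Nr0b2 (-0.22), all on the log2 scale and lower in 4 of 4 sections. No periportal, pericentral or midlobular hepatocyte gene and no secreted hepatocyte protein passed in edgeR, while 6 of 12 pericentral, 0 of 12 periportal, 1 of 3 midlobular and 1 of 10 secreted protein genes had an unadjusted p under 0.05. By a zone score from 6 periportal and 6 pericentral genes, Kupffer-rich spots lay more often in the middle of 3 equal zone classes, 40.5%, 41.1%, 40.7% and 40.2% of them against 28.4%, 29.0%, 29.7% and 29.8% of Kupffer-poor spots. The pericentral class held 20.0%, 36.4%, 26.2% and 23.8% of Kupffer-rich spots against 38.1%, 32.6%, 37.4% and 39.0% of Kupffer-poor spots, so MASH-2 stood opposite to the other 3 sections. Ranked within zone classes, 371 genes were higher and 62 lower.

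Finer rank classes gave a graded picture. From the lowest 25% of ranks to the top 5%, C1qa rose in steps in MASH-2 (151, 176, 219, 272, 338 and 481 CPM of each class's own total over 6 classes) and over a smaller range in MAFL-2 (99.3, 98.9, 112, 117, 132 and 152). Spp1 fell over the first 5 classes in MASH-2 (343, 286, 267, 230 and 189) and stood at 216 in the top 5%. Cd74 in MAFL-1 stayed between 73.4 and 90.8. These values describe the classes and were not tested.

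**Figure D3:**
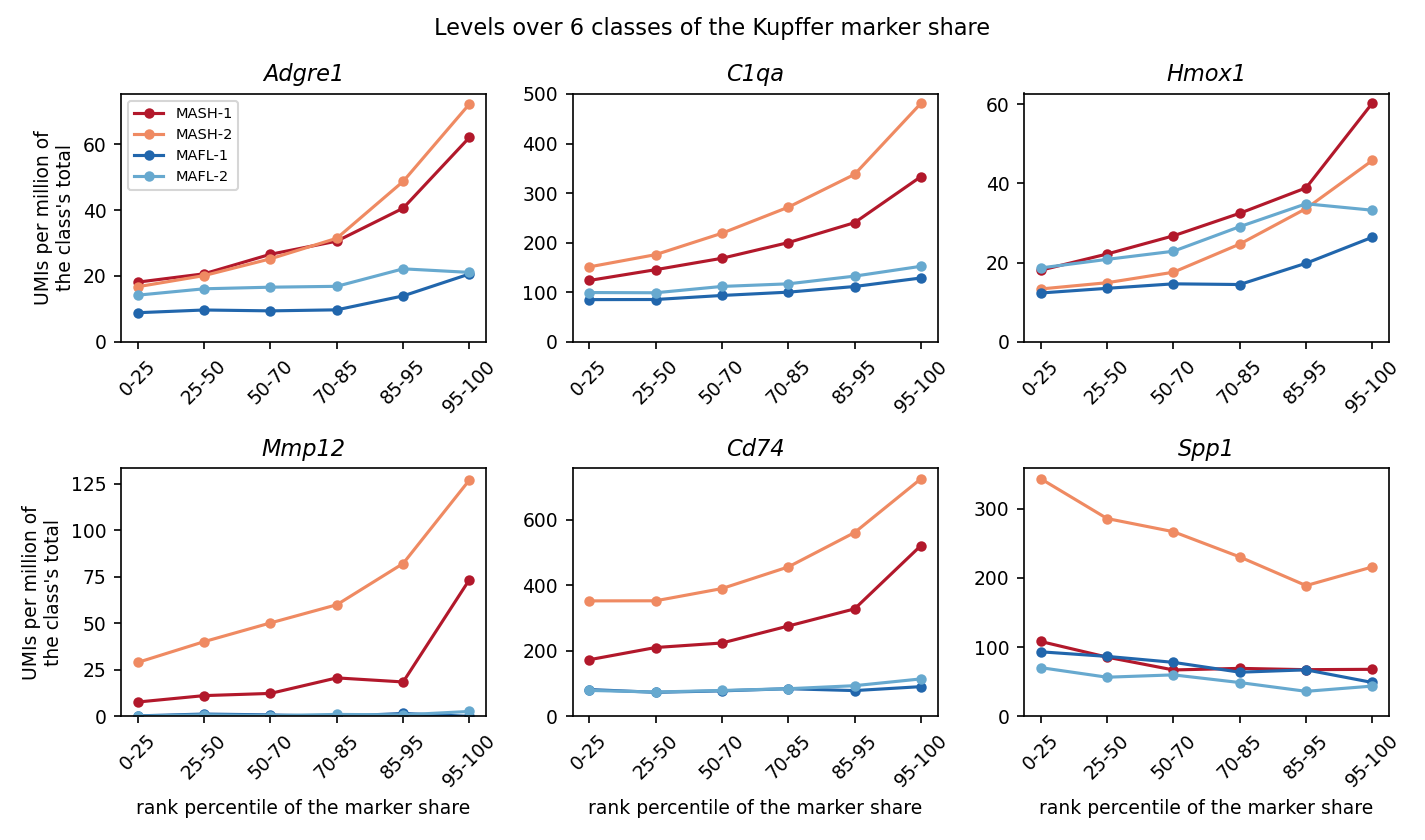
Each panel shows 1 gene in 6 classes of the rank of the Kupffer marker share (horizontal axis, percentiles), as CPM of the class's total (vertical axis, from 0), with 1 line per section. C1qa reaches 481 in the top class of MASH-2 and 152 in that of MAFL-2, and Spp1 falls to 216 in the top class of MASH-2, against 343 in its lowest class.

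The 2 groups were next taken apart, an analysis chosen after the data were seen. In the MASH sections alone 398 of 12519 genes were higher (3.18%) and 30 lower (0.24%) in Kupffer-rich spots. There 11 of 16 resident Kupffer genes rose, with a median log2 fold change of 1.23, as did 9 of 12 LAM genes, 10 of 17 lysosome genes and 6 of 8 MHC class II genes. Cd163 (1.55), Marco (1.44), Adgre1 (1.38), Folr2 (1.31) and Cd74 (0.86) were among them, with edgeR adjusted p of 4.73e-06 to 0.0329. All 16 resident genes had a positive value.

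In the MAFL sections alone 28 of 11564 genes were higher (0.242%) and 40 lower (0.346%). The 4 resident Kupffer genes that rose were Fcna (0.43), Marco (0.75), Slc40a1 (0.30) and Adgre1 (0.62), and the median of the list was 0.34. C1qa (0.46), C1qb (0.37), C1qc (0.57) and the complement regulator Cfp (0.57) rose, and so did Hmox1 (0.77), with edgeR adjusted p of 7.48e-06 to 0.00132. None of 10 LAM genes rose and Spp1 fell (-0.63, adjusted p = 1.25e-05), and none of 8 MHC class II genes passed, with 2 genes of each list at an unadjusted p under 0.05. Lower were 10 of 12 pericentral hepatocyte genes, such as the glutamine synthetase Glul (-0.50) and the cytochrome Cyp2a5 (-0.60), and 4 red cell genes, such as Hba-a1 (-1.204). Higher were 3 of 12 periportal genes, Hal (0.19), Hsd17b13 (0.15) and Cps1 (0.09), and 9 of the 12 had an unadjusted p under 0.05. These falls were not particular to MAFL. The summed pericentral list had log2 ratios of -0.28, 0.29, -0.19 and -0.29, so MASH-1 fell as the MAFL sections did and MASH-2 alone rose. The summed red cell and platelet list fell in every section (-0.75, -0.22, -0.97 and -1.10). The share of pericentral spots and of haemoglobin, given above, moved with these calls in the MAFL sections, and their part was not tested.

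**Figure D4:**
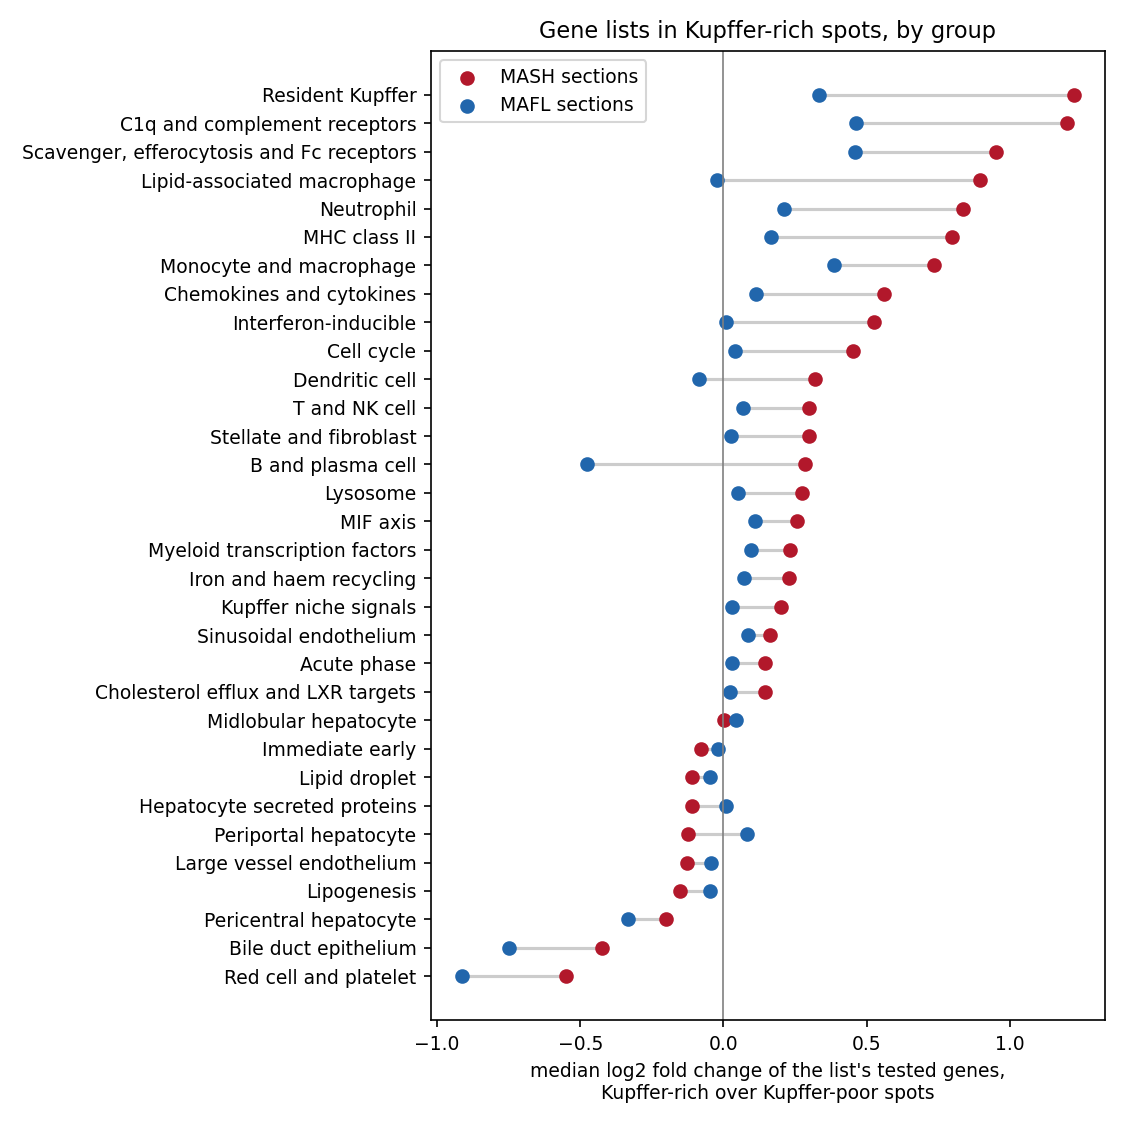
Each row is a gene list, with the median log2 fold change of its tested genes between Kupffer-rich and Kupffer-poor spots (horizontal axis) in the MASH sections (red) and in the MAFL sections (blue), joined by a line. The resident Kupffer list stands at 1.23 in MASH and 0.34 in MAFL, and the LAM list at 0.89 and -0.02.

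Whether the gap itself differed was tested as an interaction over the same 8 sums. The log2 fold change of Kupffer-rich over Kupffer-poor spots was higher in MASH than in MAFL for 55 of 12502 genes (0.44%) and lower for 2 (0.016%). Of the resident Kupffer genes 5 of 16 passed, all wider in MASH: Cd163 by 1.05 (SE 0.186, edgeR adjusted p = 0.00561), Il18bp by 0.76, Adgre1 by 0.76, Clec1b by 0.73 and Slc40a1 by 0.37. Cd163 had 22.6, 15.9, 17.5 and 21.6 CPM in Kupffer-rich spots, against 8.92, 4.12, 11.5 and 16.2 CPM in Kupffer-poor spots. Its levels in Kupffer-rich spots thus overlapped between the groups, and those in Kupffer-poor spots were lower in both MASH sections. The C1q chains C1qa (0.59), C1qb (0.63) and C1qc (0.65) and 7 of 17 lysosome genes, with the cathepsins Ctss (0.76) and Ctsc (0.65), had wider gaps too, and so did 3 of 8 MHC class II genes and 6 of 14 monocyte and macrophage genes.

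The genes with the largest interaction by the naming rule were the cytokine receptor chain Csf2rb (1.22), Cd163, the chemokine Ccl6 (1.05), the receptor Clec12a (1.04) and lipoprotein lipase, Lpl (1.03). Lpl had 66.5, 77.4, 27.5 and 37.6 CPM in Kupffer-rich spots, against 36.3, 38.5, 28.5 and 40.7 CPM in Kupffer-poor spots (SE 0.106, edgeR adjusted p = 6.62e-06), higher in both MASH sections and slightly lower in both MAFL sections. The peroxisomal carrier Slc25a17 went the other way (-0.52, adjusted p = 0.0467), with 30.5, 26.7, 38.5 and 38.9 CPM in Kupffer-rich spots against 37.4, 30.7, 29.8 and 34.4 CPM in Kupffer-poor spots. Its gap thus ran in opposite directions in the groups. With marker UMIs thinned to 1 mean, the fold change was higher in MASH for 49 genes and lower for 1. Without MAFL-1 it was higher for 21 and lower for 0, and without MAFL-2 for 22 and 0, but without MASH-1 it was higher for 152 and lower for 145, and with ranking within zone classes for 119 and 86, so the split between directions depends on these settings.

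Kupffer-rich spots of the 2 groups were then compared directly, sharing their sums with the comparisons above. Kupffer-poor spots were not tested in this way, so no difference here is shown to be particular to Kupffer-rich spots. Of 11001 genes, 215 were higher in MASH (1.95%) and 73 lower (0.664%), and with library totals in place of TMM scaling 239 were higher and 41 lower, that scaling moving the median of all genes to 0.12, against -0.0014. Of the resident Kupffer genes 3 of 16 rose and none fell (median 0.88): Adgre1 with 1.33 (SE 0.21, edgeR adjusted p = 0.00841), Il18bp with 1.34 and Folr2 with 0.97. By contrast Cd163 (-0.01) and Fcna (0.12) had adjusted p of 0.989 and 0.799, and C6 was at -0.85 (adjusted p = 0.0601).

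Of 12 LAM genes tested 9 were higher and none lower, with a median of 2.40. The filter of low genes used the sums of both groups, so members nearly absent from MAFL could be tested through their MASH levels alone. Gpnmb, Mmp12 and Atp6v0d2, with 0 and 10 UMIs in Kupffer-rich spots of MAFL-1 and MAFL-2 for the last, were such members. For them a rise was favoured in advance, so the count and the median are in part set by the filter. Trem2 stood at 24.1 ± 6.30 CPM in Kupffer-rich spots of MASH and 2.44 ± 1.32 CPM in those of MAFL (SD, n = 2 each, log2 fold change 3.26, edgeR adjusted p = 0.00131). Gpnmb, a glycoprotein of lipid-loaded macrophages, had 313 and 571 UMIs in the MASH sections, against 2 and 1 UMIs in the MAFL sections, and the lipid droplet protein Cidea 357 and 116 UMIs against 3 and 2. Mmp12 had 356 and 642 UMIs against 5 and 8. For these 3 genes the 2 groups lay far apart, and the size of the fold rests on a few UMIs in MAFL. Kupffer-poor spots showed the same gap. There Gpnmb had 221 and 683 UMIs in MASH against 3 and 7 in MAFL, and Mmp12 299 and 771 against 12 and 9. Cidea had 1714 and 297 against 16 and 9, and Trem2 246 and 401 against 29 and 38. The thyroxine carrier Serpina7, a hepatocyte gene, stood at 44.5 ± 1.69 CPM in MASH and 4.96 ± 1.19 CPM in MAFL (SD, n = 2 each, log2 fold change 3.17, adjusted p = 6.9e-05).

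MHC class II genes rose for 6 of 8, with Cd74 at 2.33 (SE 0.24, edgeR adjusted p = 0.000832), and 5 of 7 complement genes rose, with C1qc at 1.60 (adjusted p = 0.00522). Mif was at 0.09 (adjusted p = 0.834). The lowest named genes were hepatocyte and other genes: Moxd1, a monooxygenase-like gene, had no UMI in MASH and 60 and 150 in MAFL, at least 50.7-fold lower against a floor of 3 UMIs per library. Carmil1 had 4.88 and 3.94 CPM in MASH, against 21.1 and 17.03 CPM in MAFL (-2.09, adjusted p = 0.00161), and Cyp4a31 (-1.84), Nnmt (-1.61) and Tspan33 (-1.54) were lower too. Leaving out a section moved the number of genes that differed from 288 to 62 without MAFL-1, 166 without MAFL-2 and 1325 without MASH-1.

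Last, Kupffer-rich spots were set against LAM-gene-rich spots, the top 10% by the share of 13 LAM genes in the same bins. The name is that of the gene list and not of a cell type. In Kupffer-poor spots of MAFL-1 and MAFL-2 the list had 4243 and 3512 UMIs, of which Spp1 gave 1453 and 1202 and Fabp5 1426 and 807. Gpnmb had 3 and 7 there and Trem2 29 and 38, so the MAFL ranking rests little on these genes. In Kupffer-poor spots of MASH-1 and MASH-2 the list had 8522 and 14874 UMIs, of which Spp1 gave 3069 and 7023. Gpnmb gave 221 and 683 of them and Trem2 246 and 401, so Spp1 weighed more than these genes in MASH too. The classes overlapped in 74, 36, 26 and 31 spots. These were 20.0%, 12.9%, 8.52% and 11.03% of Kupffer-rich spots, where 10% of all spots are LAM-gene-rich by the rule. They were 30.2%, 19.5%, 12.7% and 16.3% of LAM-gene-rich spots, where 15% of all spots are Kupffer-rich. MAFL-1 lay below both shares and MASH-1 furthest above them. Of Kupffer-poor spots 8.77%, 9.46%, 11.6% and 10.3% were LAM-gene-rich. Spots of both classes and the 17 genes of both rules were left out. Of 11052 genes 628 were higher in Kupffer-rich spots (5.68%) and 655 lower (5.93%), and with library totals alone 346 were higher and 907 lower. Without MASH-1, 254 were higher and 396 lower, and without MASH-2 396 and 437.

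Resident Kupffer genes were higher than in LAM-gene-rich spots for 10 of 16, none lower (median 0.68). Every Kupffer-rich spot was left out of the LAM-gene-rich sums, so this direction follows in part from the choice of spots. Adgre1 had 46.5, 53.1, 16.5 and 23.1 CPM in Kupffer-rich spots, against 23.9, 20.4, 9.81 and 14.8 CPM in LAM-gene-rich spots (log2 fold change 1.02, SE 0.113, edgeR adjusted p = 7.33e-09). Folr2 had 37.6, 46.3, 19.4 and 22.3 CPM against 17.3, 15.5, 10.2 and 17.1 CPM (1.09), and Cd163 23.3, 18.8, 17.9 and 21.4 CPM against 9.32, 2.84, 9.09 and 15.1 CPM (1.24). All 3 were higher in every section. C1qc (0.60), Cfp (0.93), Hmox1 (0.80) and the growth factor receptor Csf1r (0.76) rose, and 8 of 18 sinusoidal endothelial genes did, with Mrc1 and the VEGF receptor Kdr at 0.63 each.

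All 5 bile duct genes tested were lower in Kupffer-rich than in LAM-gene-rich spots (median -2.77), with Epcam at -3.08 (SE 0.21, edgeR adjusted p = 2.19e-14). Gsn had 24.9, 54.3, 36.8 and 22.3 CPM in Kupffer-rich spots, against 140, 198, 172 and 122 CPM in LAM-gene-rich spots (-2.22, adjusted p = 2.71e-16). The matrix protein Mgp (-2.81), the lymphoid chemokine Ccl21a (-2.74), Pdzk1ip1 (-2.73) and Cd24a (-2.64) were the other lowest named genes, all lower in every section. Of 16 stellate and fibroblast genes 8 fell and 1, Reln, rose, with Col1a1 at -1.41, and of 14 monocyte and macrophage genes 7 fell and 3 (Csf1r, Aif1 and Lst1) rose, with S100a4 at -1.59 and the chemokine receptor Ccr2 at -1.52. None of 8 MHC class II genes passed in edgeR, none at an unadjusted p under 0.05 either, all 8 with negative values (median -0.32). Bile duct genes and the LAM share moved together here, and their part was not tested.

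**Figure D5:**
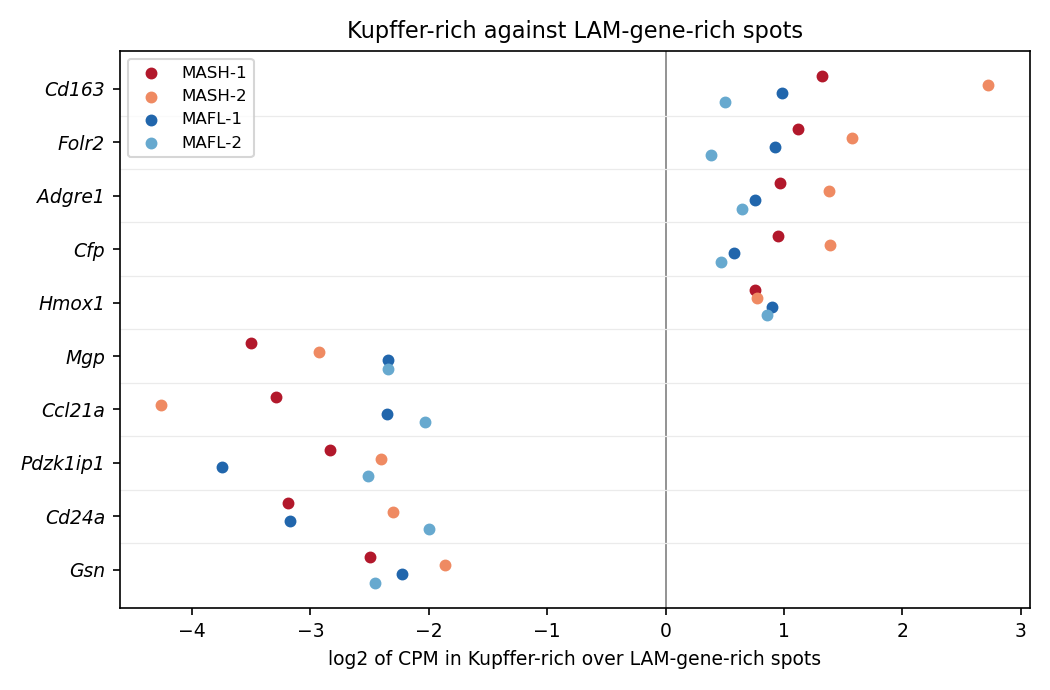
Each row is 1 of the 10 named genes, and each dot is 1 section at the log2 ratio of CPM in Kupffer-rich over LAM-gene-rich spots (horizontal axis). Cd163, Folr2, Adgre1, Cfp and Hmox1 lie right of 0 in all 4 sections, and Mgp, Ccl21a, Pdzk1ip1, Cd24a and Gsn lie left of 0 in all 4.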

How the data were processed

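RNA was measured by Visium in 4 liver sections, 2 MASH and 2 MAFL. Per the submitters' processing notes the authors used Space Ranger 1.2.2 with mm10, and the deposited values are raw UMI counts per gene (31253 features, 91 sharing a symbol) and spot. The sections shared 1182 to 1725 spot barcodes in each pair, since these name positions on the slide. Spot positions were not used.

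Spots with 500 or more UMIs were kept, leaving out 0 to 3 a section. Ties in rank were broken at random with a fixed seed. Counts were summed per section and class, the ranking genes removed, low genes filtered with filterByExpr, and sums scaled by TMM and tested with edgeR 4.0.16 (R 4.3.3), adjusting p over all genes tested (Benjamini-Hochberg, threshold 0.05). Rich and poor sums of a section were paired by a section term. Each SE given is the absolute log2 fold change divided by the square root of edgeR's quasi-likelihood F. It is thus derived from the test statistic and does not carry the degrees of freedom behind the p-value. DESeq2 1.42.0, limma 3.58.1 (voom), other scalings, filters, rankings and left-out sections were alternatives.

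Named genes were the 12 highest and 12 lowest (5 and 5 in other comparisons) among called genes with a mean of 10 CPM and 1 direction in every section or no overlap of groups, without predicted, Mup, ribosomal, mitochondrial, haemoglobin, immunoglobulin and sex-linked genes, plus the 4 ranking genes, resident Kupffer and Mif axis genes, and up to 4 of smallest p per other list. Others (such as Cldn7, C1q chains, Col1a1, Kdr, the ferritins and those called in 1 group of sections) were chosen after their values were seen. Members and lists were chosen with earlier results of these data known. The values of 1 resident Kupffer gene are not reported here.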

Additional observations from a re-analysis of the deposited data

Results flagged for a closer look

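The gap between Kupffer-rich and Kupffer-poor spots differed between the MASH and MAFL sections, by edgeR's interaction test with adjusted p of 3.17e-07 to 0.0492, for the following genes, with values as MASH minus MAFL on the log2 scale. Among resident Kupffer genes these were Cd163 (1.05), Il18bp (0.76), Adgre1 (0.76), Clec1b (0.73) and Slc40a1 (0.37), and among the ranking genes, each held out, Clec4f (0.81), Vsig4 (0.81) and Cd5l (0.82). Complement and uptake genes were C1qa (0.59), C1qb (0.63), C1qc (0.65), the dying-cell receptor Axl (0.73), Fcgr4 (0.65) and the Fc receptor signalling chain Fcer1g (0.53).

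Monocyte and macrophage genes were lysozyme, Lyz2 (0.93), with the smallest adjusted p, the adaptor Tyrobp (0.73), Aif1 (0.74) and Csf1r (0.75). Lysosome and lipid handling genes were Ctss (0.76), Ctsc (0.65), Lgmn (0.55), Ctsd (0.41), the sterol carrier Npc2 (0.34), the lipid transfer protein Pltp (0.62), Lpl (1.03) and Lgals3 (0.64). MHC class II genes were H2-Ab1 (0.68), H2-Eb1 (0.66) and H2-Aa (0.60). The others were Csf2rb (1.22), Ccl6 (1.05), Clec12a (1.04), the adhesion molecule Vcam1 (0.89), the matrix proteoglycan Dcn (0.34) and Slc25a17 (-0.52), whose value is negative. The spread of the ranking genes over spots and the number of their UMIs per spot were also higher in MASH. The part of the number was tested only by thinning, given with the held-out markers and the interaction. Thinning does not equalise the spread: medians of thinned marker UMIs in Kupffer-rich and Kupffer-poor spots were 8 and 1 in both MASH sections and 7 and 2 in both MAFL sections. The part of the spread in these differences was not tested.

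Cxcr4 was higher in Kupffer-rich spots of both MASH sections and lower in those of both MAFL sections, with a fitted difference of 1.17 on the log2 scale. In the MAFL sections it rests on 1 and 2 UMIs in Kupffer-rich spots, below the floor of 3 UMIs, against 7 and 8 UMIs in Kupffer-poor spots. It was singled out by these opposite directions alone, which were not tested as such. The interaction test gave an adjusted p of 0.753, at levels under 4 CPM.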

How the results depend on the processing

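The 324 higher genes came to 111 with DESeq2, 28 in the MAFL sections alone and 48 to 441 with 1 section left out, lowest without MASH-1. The 50 lower genes came to 11 with DESeq2, 77 with limma-voom, 31 with library totals alone, 184 with no filter beyond 1 UMI, 24 without LAM-gene-rich spots, 30 in the MASH sections alone and 8 to 80 with 1 section left out. The 57 genes whose gap differed between the groups came to 15 with DESeq2, 131 with no filter, 205 (119 higher and 86 lower in MASH) with ranking within zone classes, 31 without LAM-gene-rich spots and 21 to 297 with 1 section left out. The 288 genes that differed between the groups in Kupffer-rich spots came to 977 with no filter and 62 to 1325 with 1 section left out. The 1283 genes that differed from LAM-gene-rich spots came to 444 with DESeq2 and 650 to 1259 with 1 section left out. The causes were not tested.

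With the replicate number as a block, 114 genes had a gap that differed and 229 differed between the groups in Kupffer-rich spots. The labels do not say that a number marks a shared animal or slide, and deviations of same-numbered sections correlated at -0.0896 in Kupffer-rich sums and -0.195 in whole sections, over 2 pairs. With the numbers crossed, chosen after seeing the data, the replicate block gave 172 and 1008 genes, and 779 over whole sections in place of 0.

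With DESeq2, held-out Clec4f (0.86, adjusted p = 0.0375), Vsig4 (1.01, adjusted p = 0.0067) and Cd5l (0.94, adjusted p = 0.0214) passed, and held-out Timd4 ranged over 1.13 to 1.498 with 1 section left out. Between the groups, over whole sections, Vsig4 and Cd5l passed in edgeR with no filter (0.67, adjusted p = 0.011, and 0.69, adjusted p = 0.0251). They also did with the crossed replicate block (0.67, adjusted p = 0.0303, and 0.72, adjusted p = 0.0399). No label gives that pairing and it was chosen after the data were seen, so no group difference is drawn from it. With the replicate number itself as block, 0 genes passed. Timd4 ranged from -0.039, without MASH-1, to 0.54. Between Kupffer-rich and Kupffer-poor spots, C6, at 0.01, turned to -0.0073 with no filter, -0.0044 without UMI bins, -0.045 in MAFL alone and -0.00032 with marker UMIs thinned, with -0.045 to 0.048 over left-out sections. Id3 turned to -0.0029 against the bottom 15% and -0.053 in MAFL alone, with -0.0039 to 0.073 over left-out sections, and Tmem26 to -0.12 in MAFL alone. Of the other single-gene values over 45 genes, 853 kept direction and call, 126 lost the call and 46 gained one. Kupffer-rich spots held a median of 20 and 19 marker UMIs in MASH and 7 and 11 in MAFL.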

Other observations

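Interferon-inducible genes were higher in Kupffer-rich than in Kupffer-poor spots for 3 of 12, none lower, with a median log2 fold change of 0.32: Ifi27l2a (0.43), Oasl2 (0.51) and Irf7 (0.34) by edgeR. The stress factor Atf3 (0.90, edgeR adjusted p = 0.0186) was the 1 of 7 immediate early genes to rise. Its rise rests on the MASH sections, with 41 and 35 UMIs in Kupffer-rich spots, against 1 and 6 in those of MAFL-1 and MAFL-2. Against LAM-gene-rich spots 5 of the 7 genes were lower. Thrsp, a regulator of lipid synthesis that the study's title names, was the 1 of 10 lipogenesis genes to fall between the classes (-0.19, edgeR adjusted p = 0.0214). In MAFL-1, however, Thrsp was higher in Kupffer-rich spots for the size of the class (158 UMIs, against 478 in Kupffer-poor spots).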
